A study of Mus musculus with 16 samples.

Results

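The CDK inhibitors and the D-type cyclins were examined here in clonal neural cells of hybrid mice, gene by gene. The 10 genes were taken from a list, which was made with earlier results of these data known. They were the Cip/Kip inhibitors Cdkn1a, Cdkn1b and Cdkn1c, the INK4 inhibitors Cdkn2a, Cdkn2b, Cdkn2c and Cdkn2d, and the cyclins Ccnd1, Ccnd2 and Ccnd3. Of these, 9 were matched by symbol to 1 of the 50600 gene identifiers in the files, and Cdkn2d was not analysed here. The RNA-seq data comprised 16 libraries of 12 clones, all derived from embryonic stem cells of a 129Sv x Cast/EiJ F1 cross by way of neural progenitor cells (NPCs) kept in EGF and FGF2. Each clone is therefore 1 picked colony of a cultured line, not an animal.

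The astrocyte group held 1 poly(A) library from each of 5 clones, called 129, C2 and G4 (female) and mC3 and mE6 (male), after 48 hours with 10 ng/mL BMP4. The first of these clone names is also the name of an allele, so that "clone 129" and "the 129 allele" are kept apart below. The NPC clones F5 (female), mG2 and mG6 (male) gave 1 poly(A) library each, without BMP4. The male NPC clones Ch3, Ch5, Ch7 and Ch8 gave 2 rRNA-depleted libraries each. The astrocyte medium also held less FGF2 than the NPC medium, and no EGF is named for it. BMP4 was therefore not the only difference in treatment, and the parts of these factors were not tested. Among these libraries no clone was measured both as NPC and as astrocyte, and NPC data of the astrocyte clones were not analysed here. Clone and cell type can therefore not be told apart, and p-values of tests between cell types measure the spread between clones. Those of tests among the Ch clones measure the spread between the 2 libraries of a clone. The files held 78257443 to 93963293 reads on genes in astrocytes, 69925081 to 105892734 in poly(A) NPC libraries and 20871111 to 30920672 in the Ch libraries, of which 26753109 to 32518327, 21555315 to 32263331 and 4193927 to 5971768 could be assigned to an allele.

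D-type cyclins bind the kinases CDK4 and CDK6, which phosphorylate the retinoblastoma protein and so release E2F factors to drive entry into S phase. INK4 proteins bind these kinases and keep the cyclin off, whereas Cip/Kip proteins bind cyclin-CDK complexes, those of CDK2 above all. In neural lineages Ccnd1 and Ccnd2 are the D cyclins of cycling progenitors, and inhibitors of both families accompany the exit from the cycle.

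The labels were compared with marker genes. The summed level of 16 proliferation genes was 148 to 246 CPM (counts scaled to the library's total of reads on genes) in astrocytes against 2177 to 2904 CPM in poly(A) NPC clones and 2184 to 3116 CPM in the Ch libraries. Gfap, the intermediate filament of astrocytes, was at 61.9 to 2092 CPM in astrocytes and at 0.680 to 2.25 CPM in poly(A) NPC clones, while the progenitor filament Nes fell from a mean of 1323 to 92.3 CPM (adjusted p = 9.74e-05). Of the 8 astrocyte markers, 3 rose, 1 fell (Aldh1l1) and 4 did not pass the test, and of the 7 NPC markers 2 fell and 5 did not pass. Of the 4 fibroblast markers, 3 were tested, 1 rose and 2 did not pass; their summed level was 3.75 to 204 CPM in astrocytes and 1.95 to 3.20 CPM in poly(A) NPC clones, and Col1a1, the gene that rose, reached 200 CPM in clone C2. Neuron markers summed to 4.74 to 40.2 CPM in astrocytes and 15.1 to 29.7 CPM in poly(A) NPC clones. Oligodendrocyte markers summed to 7.09 to 13.2 CPM in astrocytes with Sox10 and Mag at 0, embryonic stem cell markers to at most 0.847 CPM, and microglial and endothelial markers to at most 2.19 CPM. Of the tested genes of these lists, 1 of 5 neuron markers (Snap25) and 1 of 2 microglial and endothelial markers (Pecam1) rose, 2 of 3 stem cell markers fell, and 0 of 2 oligodendrocyte markers passed. The part of these other cell types in the results below was not tested.

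Promoter sequences of 3 inhibitors are shown, picked by the levels or ratios of these genes. Cdkn1b was higher in every astrocyte clone than in any NPC clone, and Cdkn2b was read from 1 allele in 1 clone. Cdkn1a had the highest level per length among the inhibitors in 11 of 12 clones. The sequences are from RefSeq (GRCm38.p6), and each is the 250 bases before an annotated start, written along the gene's strand. No level or ratio was tested against them. In the promoters of Cdkn1b (chr6:134920151-134920400, plus strand) and Cdkn2b (chr4:89311033-89311282, minus strand) the capitals mark CG pairs. In that of Cdkn1a (chr17:29090729-29090978, plus strand) they mark CATG, 6 bases of any kind and CATG again, the core letters of a p53-type element.
Cdkn1b: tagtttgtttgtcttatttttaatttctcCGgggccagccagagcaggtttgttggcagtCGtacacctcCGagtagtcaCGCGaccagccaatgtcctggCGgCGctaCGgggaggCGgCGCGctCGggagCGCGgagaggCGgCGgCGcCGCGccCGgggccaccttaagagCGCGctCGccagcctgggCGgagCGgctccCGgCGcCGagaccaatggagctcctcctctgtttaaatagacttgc
Cdkn2b: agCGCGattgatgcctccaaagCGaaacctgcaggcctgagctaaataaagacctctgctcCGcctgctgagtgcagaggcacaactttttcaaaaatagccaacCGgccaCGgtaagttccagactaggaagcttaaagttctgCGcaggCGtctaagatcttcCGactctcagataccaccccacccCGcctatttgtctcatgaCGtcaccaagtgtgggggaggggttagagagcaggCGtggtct
Cdkn1a: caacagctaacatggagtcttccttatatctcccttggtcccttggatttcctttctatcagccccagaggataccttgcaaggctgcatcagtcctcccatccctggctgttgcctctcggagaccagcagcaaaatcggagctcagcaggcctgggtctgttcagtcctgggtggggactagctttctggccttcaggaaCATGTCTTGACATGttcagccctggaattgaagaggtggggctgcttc

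The Cdkn1b window held 28 CG pairs, a number reached by 7.61% of the 32851 RefSeq promoter windows of the same length, and the Cdkn2b window held 12, reached by 33.5%. The median over all windows was 6. The CATG pair with 6 bases between, whose fixed letters read alike on both strands, occurred in 161 windows (0.490%). In Cdkn1a it ended 34 bases before the start shown and was not found before the downstream start of the gene. RefSeq windows were at hand for 6 of the 9 genes, and those of Cdkn1c, Ccnd1 and Ccnd2 were not used here. These letters describe the windows and carry no measurement of binding or methylation.

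The question whether leaving the cell cycle went with a rise of CDK inhibitors was addressed by comparing the 5 astrocyte clones with the 3 poly(A) NPC clones. Among the 9 genes, 1 rose (Cdkn1b), 1 fell (Ccnd1) and 7 did not pass the test, in a fit in which 25.5% of the 18192 genes tested were called, 13.0% upward and 12.6% downward. The same 2 genes had no overlap between the groups, as had 31.8% of all genes tested. The median log2 fold change of the 9 genes was -0.08, beside 0.08 for all genes, and the NPC mean of Cdkn1c rested mainly on 1 clone. In bulk RNA, fewer cells of a type and less RNA per cell cannot be told apart. The plot of levels by library shows all values.

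**Figure D1:**
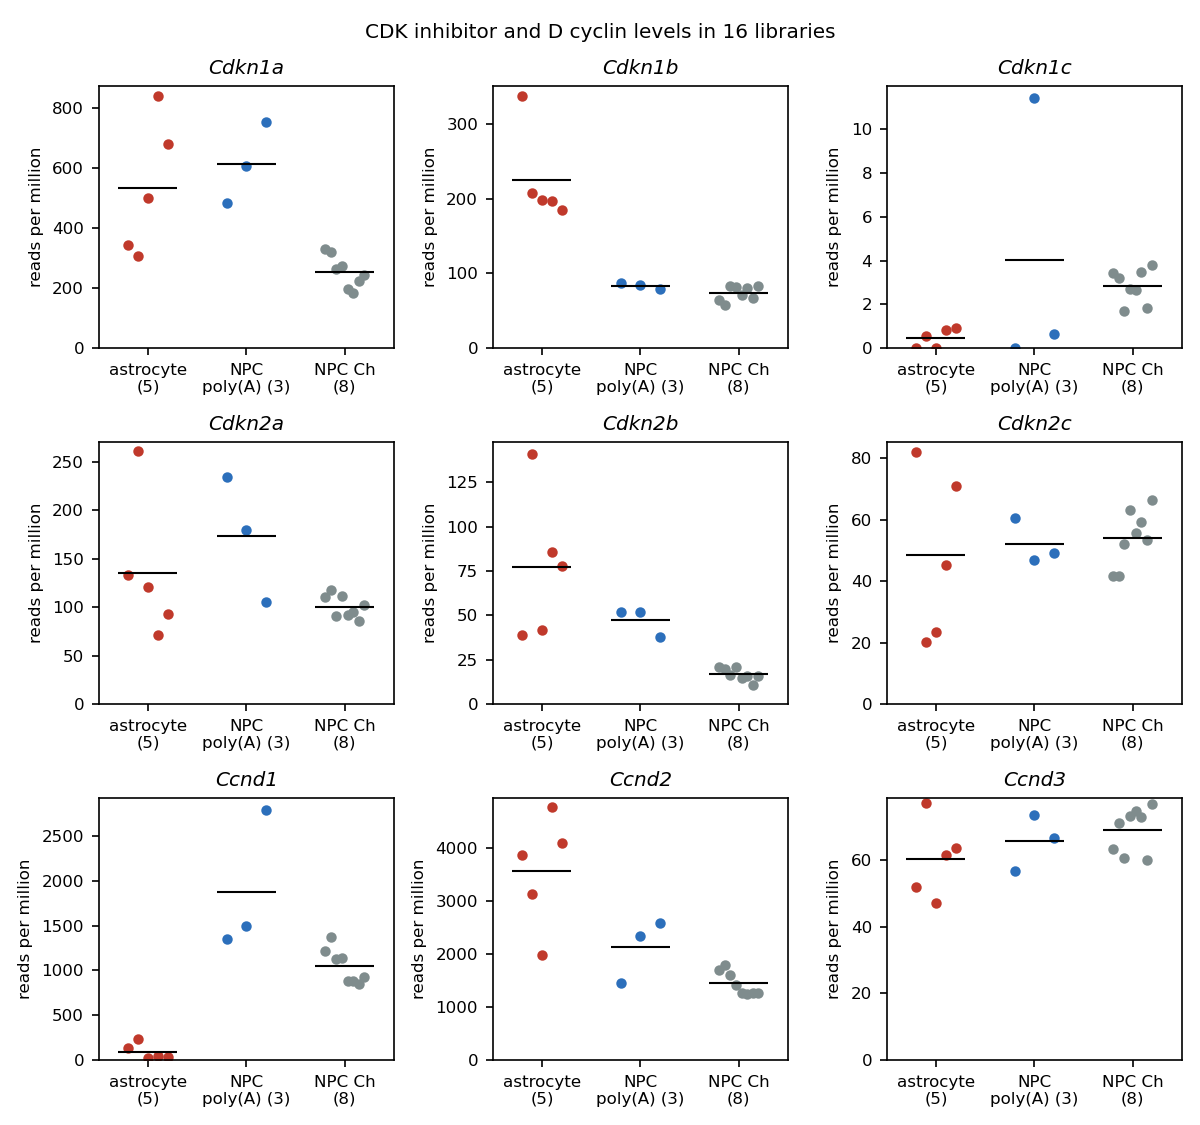
Level of each gene in CPM (linear axes from 0) in 5 astrocyte, 3 poly(A) NPC and 8 rRNA-depleted NPC libraries; each point is 1 library and each line the mean of its group. Astrocytes lie above all NPC libraries for Cdkn1b (185 to 337 CPM) and below them for Ccnd1 (26.3 to 232 CPM), and the groups overlap for the other 7 genes when the poly(A) libraries are compared.

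Cdkn1b encodes p27Kip1, which holds cyclin E-CDK2 inactive in cells that leave the cycle. It stood at 337 CPM in clone 129, 208 in C2, 198 in G4, 196 in mC3 and 185 in mE6, against 86.5 CPM in F5, 84.6 in mG2 and 78.6 in mG6. Every astrocyte clone lay above every NPC clone, and clone 129 was the highest. The mean rose from 83.2 ± 4.14 (SD, n = 3) to 225 ± 63.3 CPM (SD, n = 5), a log2 fold change of 1.47 (SE 0.21, adjusted p = 0.00245, edgeR quasi-likelihood test). The call held in all 15 alternative fits, with log2 fold changes of 1.32 to 1.53, and it was 1.32 without clone 129. The 4 Ch clones, prepared by rRNA depletion, were at 60.4 to 82.6 CPM.

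The protein of Cdkn1b is known to be marked for destruction by the SCF-Skp2 ligase with its cofactor Cks1b. Of the 4 genes listed for that turnover, 2 fell and 2 did not pass. Skp2 fell from 123 ± 8.79 to 9.67 ± 1.92 CPM (log2 fold change -3.62, SE 0.19, adjusted p = 2.51e-05) and Cks1b from 49.0 to 13.8 CPM (-1.79, adjusted p = 0.00221). Cul1, the scaffold of the ligase, changed by -0.01 and Fbxw7, another receptor of SCF ligases, by -0.41 on the log2 scale without passing. The median of the list was -1.10, beside 0.08 for all genes.

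Cdkn1a, which encodes p21Cip1, a broad inhibitor of cyclin-CDK complexes and a target of p53, did not pass the test. It was at 343 CPM in clone 129, 306 in C2, 498 in G4, 839.6 in mC3 and 680 in mE6, against 481 CPM in F5, 605 in mG2 and 752 in mG6. The groups overlapped over most of their range, and the 2 male astrocyte clones were the highest of the 5. The log2 fold change was -0.15 (SE 0.36, adjusted p = 0.795), and against the Ch clones it was 0.90 (adjusted p = 0.0327), in a comparison in which 62.5% of genes were called and which also differs in library preparation. Of 16 other listed p53 target genes, none rose, 8 fell and 8 did not pass, with a median log2 fold change of -0.87 beside 0.08 for all genes. Those with the largest falls were Plk2 (437 to 74.0 CPM), a polo-like kinase, Btg2 (198 to 38.5 CPM), an antiproliferative gene, Sesn2 (159 to 48.5 CPM), a stress-response gene, and Bbc3 (28.2 to 10.7 CPM), which encodes the pro-apoptotic PUMA. In the Ch clones Plk2 (254 to 350.1 CPM), Btg2 (189 to 233 CPM) and Sesn2 (92.0 to 119.7 CPM) lay above all astrocyte clones as well, whereas Bbc3 (6.86 to 11.4 CPM) lay within the astrocyte range of 5.32 to 18.3 CPM. The summed level of the 16 genes was 1219 to 2902 CPM in astrocytes and overlapped with the 1811 to 2706 CPM of the Ch libraries, while the poly(A) NPC clones were at 3215 to 4569 CPM.

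Cdkn1c, which encodes p57Kip2 and is imprinted, was low in all but 1 library. It had 1 read in each of clones 129 and G4, 43 in C2, 64 in mC3 and 88 in mE6 (0.0113 to 0.937 CPM), against 0 reads in F5, which allows up to 0.0283 CPM, 798 in mG2 (11.4 CPM) and 51 in mG6 (0.624 CPM). The NPC clone mG2 alone stood above 1 CPM among the poly(A) libraries. The log2 fold change of -2.99 (SE 1.79, adjusted p = 0.250) rested on that clone, and without it the value was 0.60 (adjusted p = 0.867). The Ch clones, at 2.15 to 3.31 CPM, lay above every astrocyte clone, and against them the log2 fold change was -2.75 and passed (adjusted p = 0.0382). In that comparison 62.5% of genes were called, and it also differs in library preparation.

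The INK4 inhibitors did not pass the test either. Cdkn2a encodes p16INK4a and p19ARF from alternative starts, which a gene-level count adds together. It was at 133 CPM in clone 129, 261 in C2, 120 in G4, 70.8 in mC3 and 92.4 in mE6, against 233.7 CPM in F5, 179.8 in mG2 and 105 in mG6 (log2 fold change -0.28, SE 0.44, adjusted p = 0.679). The groups overlapped, with the highest value in an astrocyte clone and the next in an NPC clone.

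Cdkn2b, the p15INK4b gene next to Cdkn2a, was at 38.7 CPM in clone 129, 141 in C2, 41.7 in G4, 85.9 in mC3 and 77.6 in mE6, against 51.9 CPM in F5, 52.0 in mG2 and 37.7 in mG6. Clones C2, mC3 and mE6 lay above all poly(A) NPC clones, and clones 129 and G4 lay within them. The log2 fold change was 0.78 (SE 0.44, adjusted p = 0.227), and it was 0.38 without clone C2, the clone in which Col1a1 was also highest. The Ch clones, at 13.2 to 20.2 CPM, lay below every astrocyte clone; against them the log2 fold change was 2.05 and passed (adjusted p = 0.00165), in the comparison that also differs in library preparation.

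Cdkn2c, which encodes p18INK4c, was at 82.2 CPM in clone 129, 20.1 in C2, 23.3 in G4, 45.2 in mC3 and 71.0 in mE6, against 60.4 CPM in F5, 47.0 in mG2 and 49.1 in mG6. The astrocyte clones fell on both sides of the NPC clones, with C2 and G4 lowest. The log2 fold change was -0.08 (SE 0.45, adjusted p = 0.921). With clones C2 and G4 as the only astrocytes, whose sample titles share the prefix B129, it was -1.16 (adjusted p = 0.0257). With the other 3, prefix A234, it was 0.32 (adjusted p = 0.419). The 3 poly(A) NPC libraries all bear another prefix, B145, so that prefix and cell type cannot be told apart. What the prefixes stand for is not given in the sources used here.

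Compared per kilobase of exon (RPKM), the order of the inhibitors was led by Cdkn1a in 11 of the 12 clones and by Cdkn2a in astrocyte clone C2. Cdkn1a was at 138 to 378 RPKM in astrocytes and 217 to 338 RPKM in poly(A) NPC clones, and Cdkn2a at 60.5 to 223 and 89.9 to 199.8 RPKM. Cdkn1b was at 40.6 to 74.0 RPKM in astrocytes, and at 17.3 to 19.0 RPKM in poly(A) NPC clones. Among the 6 inhibitors measured it ranked 4 or 5 in those NPC clones and 3 or 4 in astrocytes. The ranges of Cdkn1b, Cdkn2a and Cdkn2b overlapped in astrocytes, so that their order differed between clones.

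Ccnd1, the D cyclin that follows growth factor signals, fell in astrocytes. It was at 139 CPM in clone 129, 232 in C2, 26.3 in G4, 42.2 in mC3 and 35.3 in mE6, against 1350 CPM in F5, 1493 in mG2 and 2786 in mG6. All astrocyte clones lay below all NPC clones, and the astrocyte clones differed among themselves, with C2 highest and G4 lowest. The mean went from 1876 ± 791 (SD, n = 3) to 94.9 ± 89.2 CPM (SD, n = 5), a log2 fold change of -4.26 (SE 0.76, adjusted p = 0.00611). The call held in 14 of 15 alternative fits; with C2 and G4 as the only astrocytes the value was -3.75 (adjusted p = 0.0553). The Ch clones were at 883 to 1306 CPM. The medium of the astrocytes also differed in FGF2 and EGF, and the part of these factors in the fall of Ccnd1 was not tested.

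Ccnd2 did not pass the test, and its mean was the higher one in astrocytes. It was at 3881 CPM in clone 129, 3144 in C2, 1979 in G4, 4778 in mC3 and 4097 in mE6, against 1455 CPM in F5, 2345 in mG2 and 2598 in mG6. Only G4 of the astrocyte clones lay within the range of the NPC clones. The log2 fold change was 0.79 (SE 0.34, adjusted p = 0.123), and with sex as a covariate it was 0.97 (adjusted p = 0.0417). Against the Ch clones it was 1.12 (adjusted p = 0.00467), in the comparison that also differs in library preparation and in which 62.5% of genes were called. Ccnd3 was at 47.2 to 77.2 CPM in astrocytes and 56.7 to 73.7 CPM in poly(A) NPC clones (log2 fold change -0.06, SE 0.20, adjusted p = 0.855).

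Per length, the make-up of the D cyclins differed between the cell types. Ccnd1 was 46.7 to 59.96% of the summed RPKM of the 3 genes in poly(A) NPC clones, 47.6 to 50.1% in the Ch clones and 1.22 to 9.38% in astrocytes. Ccnd2 was 85.3 to 95.6% of it in astrocytes and 37.6 to 49.4% in poly(A) NPC clones. The sum itself was 375 to 876 RPKM in astrocytes and 632 to 1212 RPKM in those NPC clones, and these ranges overlapped. 

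The partners of these proteins were described from lists. All 9 partner kinases and later cyclins fell, with a median log2 fold change of -4.08. Those with the largest falls were the mitotic cyclins Ccnb1 (139 to 1.02 CPM) and Ccnb2 (37.0 to 0.472 CPM), the S-phase cyclin Ccna2 (173 to 1.76 CPM) and Ccne1 (61.8 to 2.30 CPM), the cyclin of CDK2 at the G1/S boundary. Among the kinases that D cyclins bind, Cdk4 fell from 456 ± 135 to 145.5 ± 64.2 CPM (log2 fold change -1.61, adjusted p = 0.00819) and Cdk6 fell by 3.86 on that scale (adjusted p = 0.00840). Cdk6 was at 0.362 to 0.818 CPM in astrocytes, and at 0.831 CPM in F5, 7.42 in mG2 and 14.4 in mG6, so that F5 lay next to the astrocyte clones and the NPC mean rested on mG2 and mG6. All 16 proliferation markers fell, with a median of -4.23. Those with the largest falls were Mki67 (460 to 1.29 CPM), Aurkb (45.9 to 0.219 CPM), Bub1 (61.1 to 0.392 CPM) and Plk1 (71.5 to 0.645 CPM), which serve chromosome behaviour and mitosis.

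Of 11 pocket proteins and E2F factors, 2 rose, 6 fell and 3 did not pass, with a median of -0.96. The genes that rose were pocket protein genes, the brakes on E2F: Rb1 went from 57.4 ± 9.56 to 126 ± 27.4 CPM (log2 fold change 1.19, adjusted p = 0.00688) and Rbl2 from 38.1 to 54.9 CPM (0.59, adjusted p = 0.0421). In the rRNA-depleted Ch clones Rb1 was at 8.98 to 10.96 CPM, below the poly(A) NPC clones. The third pocket protein gene, Rbl1, fell from 53.1 to 9.57 CPM. E2f8, E2f7 and E2f2 had the largest falls of the list (-7.33, -5.76 and -4.61).

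**Figure D2:**
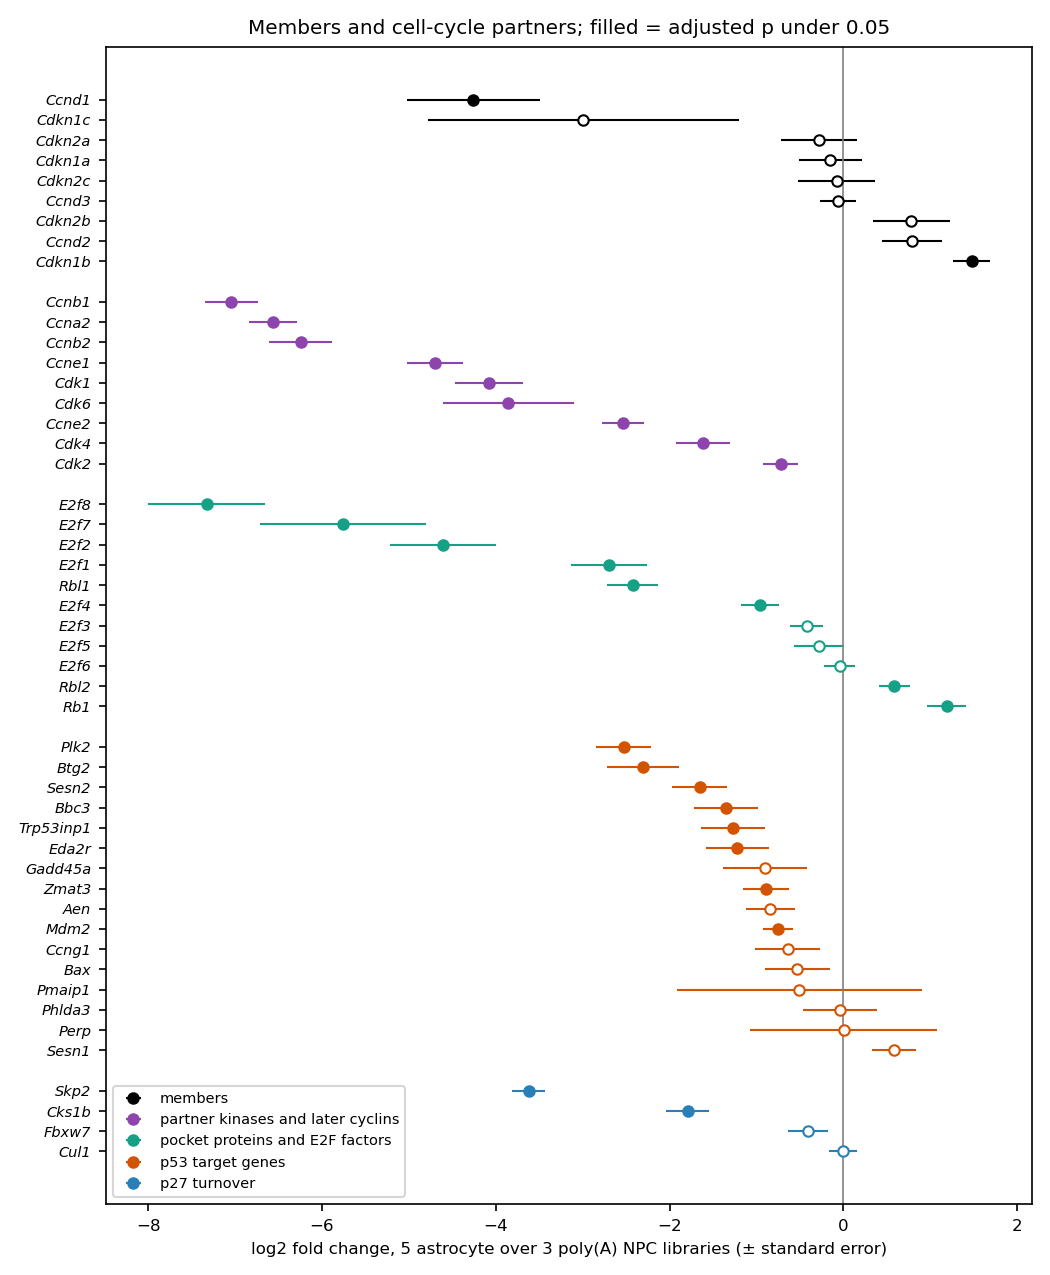
Log2 fold change of 5 astrocyte over 3 poly(A) NPC libraries (horizontal axis, ± standard error) for the 9 genes and 4 lists of cell-cycle partners, coloured by list; filled points have an adjusted p under 0.05. Cdkn1b, Rb1 and Rbl2 are the filled points to the right of 0, while all 9 partner kinases and later cyclins lie to its left.

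For each gene, the 3 genes whose log2 CPM was most alike over the 8 poly(A) libraries were looked up among 11041 genes. These values describe 8 libraries that fall into 2 cell types, share their normalisation and are the highest of many. For Cdkn1b they were Tmem136, 1110007C09Rik and Camkk1 (Pearson r 0.983 to 0.987), and for Ccnd1 Trp53i11, Topbp1 and Ythdf1 (0.986 to 0.987). Cdkn1a was most like Dennd5a, Mlec and Casq2 (0.956 to 0.981), Cdkn1c like Zfhx2, Cyfip2 and Zfp518a (0.879 to 0.917) and Cdkn2a like Frmd8, Mtap6 and Recql5 (0.895 to 0.950). Cdkn2b was most like Chd5, Snrpb2 and Ttc5 (0.942 to 0.955), Cdkn2c like Tceb1 and 2 identifiers given no symbol (0.959 to 0.975), Ccnd2 like Fam188a, Copg2 and Mmp19 (0.968 to 0.971) and Ccnd3 like Tspan14, Btg3 and Gm7334 (0.906 to 0.953).

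The 4 Ch clones, NPC clones of the same sex with 2 libraries each, were compared to ask how far these levels differ between clones. Of the 9 genes, 4 passed the test (edgeR quasi-likelihood F-test), where 16.6% of 17095 genes did. Cdkn1a was at 328 and 321 CPM in Ch3, 264 and 272 in Ch5, 197 and 183 in Ch7 and 224 and 244 in Ch8 (adjusted p = 0.000934). The libraries of a clone lay together, and Ch3 was 1.70-fold above Ch7. Ccnd1 was at 1216 and 1372 CPM in Ch3, 1124 and 1143 in Ch5, 885 and 880.4 in Ch7 and 846 and 924 in Ch8 (adjusted p = 0.00314). Both calls held with each library left out in turn.

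Ccnd2 ranged from 1256 CPM in Ch7 to 1758 CPM in Ch3 over the clones (adjusted p = 0.0187), and Cdkn2c from 41.6 CPM in Ch3 to 59.5 CPM in Ch8 (adjusted p = 0.0245). Ch3 was thus the clone with the most Cdkn1a, Ccnd1 and Ccnd2 and the least Cdkn2c. The calls of Ccnd2 and Cdkn2c were lost when a library of Ch3 or of Ch7 was left out; adjusted p was then 0.0580 to 0.123 for Ccnd2 and 0.0621 to 0.205 for Cdkn2c. Cdkn1b, Cdkn1c, Cdkn2a, Cdkn2b and Ccnd3 did not pass (adjusted p = 0.0637 to 0.410), though Cdkn2b passed in 5 of 12 alternatives and Cdkn1b and Cdkn2a in 1 each.

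The allelic expression ratio was taken as the percentage of allele-specific reads on the Cast allele, in clones with at least 20 such reads. Following the study's classes, a ratio of 35 to 65% is called biallelic and one under 15% or over 85% monoallelic. Without Cdkn1c, 92 of 96 values of a gene in a clone were biallelic. The 4 exceptions were Cdkn2b in clone 129, Ccnd1 in G4, and Cdkn2a in G4 and mG6. Over all genes 77.6% of values were biallelic and 9.14% monoallelic. Those shares take in every gene with 20 reads, also genes of the X chromosome and imprinted genes. The genes counted here are autosomal, leave out the imprinted Cdkn1c and had at least 213 reads, so the 2 sets are not alike.

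**Figure D3:**
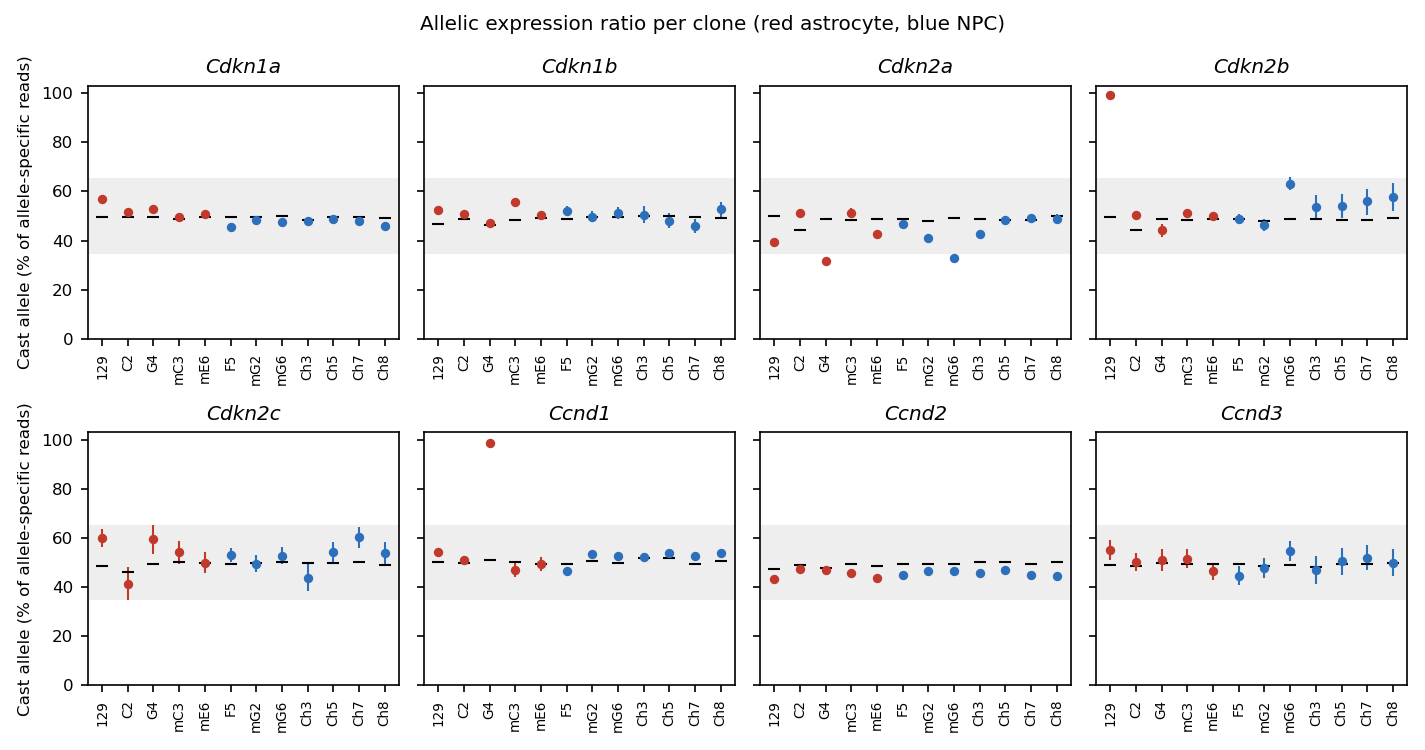
Allelic expression ratio (% Cast) of 8 genes in 12 clones, astrocytes in red and NPC clones in blue; each vertical bar spans the 95% Wilson interval of the read counts, black dashes mark the median of other genes within 10 Mb, and the grey band marks 35 to 65%. Cdkn2b in clone 129 (99.2%) and Ccnd1 in clone G4 (98.8%) stand at the top of their panels while the local medians stay near 50%. For Ccnd1 in G4 that median does not show a nearer stretch. There all 12 covered genes, from Nap1l4 to Tpcn2, were at 98.8 to 100% Cast.

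Cdkn2b in astrocyte clone 129 had 1559 Cast reads and 12 reads of the 129 allele, a ratio of 99.2% (95% Wilson interval 98.7 to 99.6%). In the other 4 astrocyte clones it was 44.1 to 51.0%, and in the 7 NPC clones 46.3 to 63.2%. The 129 allele gave 0.136 CPM in clone 129 and 9.85 to 29.1 CPM in the other astrocyte clones, while the Cast allele gave 17.7 and 7.78 to 29.7. The Cast allele of clone 129 was thus within the range of the other clones and the 129 allele below it. Total Cdkn2b in clone 129 was the lowest of the astrocyte clones, 38.7 CPM, with 41.7 CPM in G4.

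The genes beside Cdkn2b did not share this ratio. In clone 129, Cdkn2a (chr4:89274473-89294619) was at 39.5% Cast (38.3 to 40.6%) and Mtap, the methylthioadenosine phosphorylase gene, at 57.9%, and the median of 43 genes within 10 Mb of Cdkn2b (chr4:89306289-89311032) was 49.6%. Dmrta1, a transcription factor gene, had 24 allele-specific reads there, of which 1 was Cast (4.17%), and in F5 it was at 90.4% of 52 reads. Elavl2, a neuronal RNA-binding protein gene, was at 78.5% in clone 129, 38.8% in C2 and 85.7 to 93.7% in G4, mC3 and mE6. Cdkn2a itself was biased to the 129 allele in astrocyte clone G4 (31.8%, 30.7 to 32.9%) and in NPC clone mG6 (32.8%, 31.5 to 34.1%), and at 39.5 to 51.4% in the other clones. In mG6 the neighbour Cdkn2b was at 63.2%, on the other side of 50%.

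Ccnd1 (chr7:144929931-144939831) in astrocyte clone G4 had 654 Cast reads and 8 reads of the 129 allele, 98.8% (97.6 to 99.4%). It was at 47.1 to 54.2% in the other astrocyte clones and 46.7 to 54.0% in the NPC clones. In G4 the 129 allele gave 0.0997 CPM against 5.74 to 34.3 in the other astrocyte clones, and the Cast allele gave 8.15, within their 5.61 to 35.7. Ccnd1 overlaps its neighbour Oraov1 at one end, and reads were counted by strand. The level of Ccnd1 in G4, 26.3 CPM, was the lowest of the 12 clones. Without G4, the fall of Ccnd1 in astrocytes was -4.04 on the log2 scale (adjusted p = 0.0107).

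**Figure D4:**
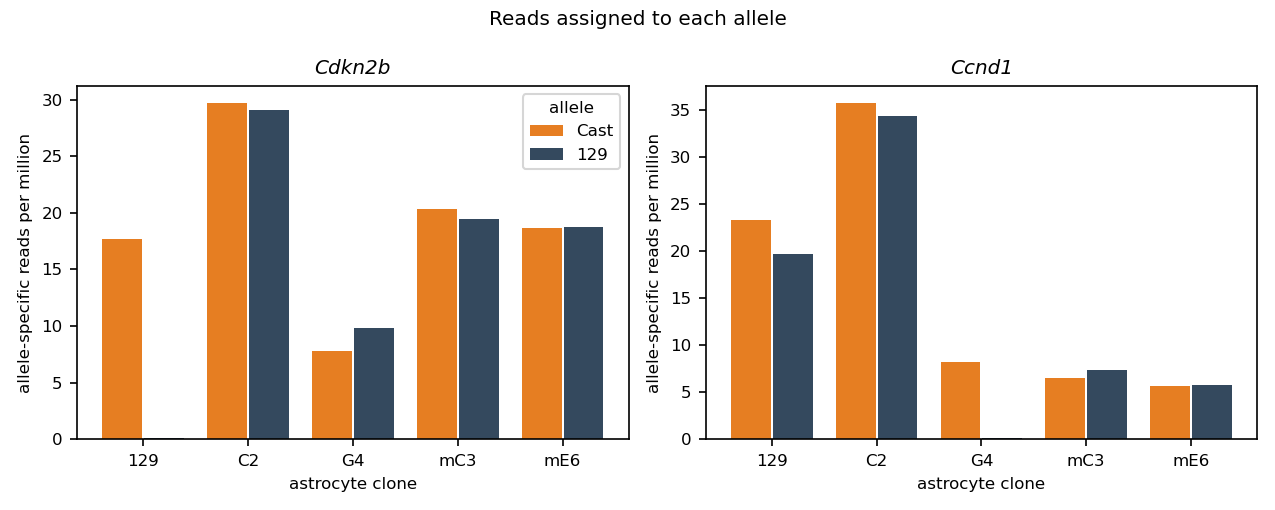
Allele-specific CPM of Cdkn2b and Ccnd1 in the 5 astrocyte clones, Cast allele in orange and 129 allele in dark blue (bars from 0, 1 library each). The dark bar is nearly absent for Cdkn2b in clone 129 (0.136) and for Ccnd1 in clone G4 (0.0997).

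The ratio of Ccnd1 in G4 was shared by its neighbours, a comparison made after the values were seen. From the position of Cdkn1c towards the end of chromosome 7, 12 genes had at least 20 allele-specific reads in all 5 astrocyte clones, and all 12, from Nap1l4 to Tpcn2, were at 98.8 to 100% Cast in G4. In the other astrocyte clones the same genes were at 40.6 to 67.8%. Of the 26 genes compared before Cdkn1c, from Ptdss2 to Tssc4, none was above 95% in G4. The closest to Cdkn1c, Cd81 and Tssc4, were at 46.5 and 53.4%, and 1 gene, Mrpl23, was at 0% in G4 and 66.2 to 71.6% in the others.

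The levels of these 12 genes were lower in G4 too. All 12 were below each of the other astrocyte clones, as were 8 of the 26 genes before Cdkn1c. The share of such genes over the whole genome was not counted. The median log2 ratio of G4 to the mean of the others was -1.22 for the 12 genes. It was -0.13 for 12483 genes with at least 50 reads and -0.22 for the 26 genes before Cdkn1c. Ccnd1 was at -2.09 and the other 11 between -1.71 and -0.38. Every covered gene of the stretch thus shared both the ratio and the direction of the level with Ccnd1.

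**Figure D5:**
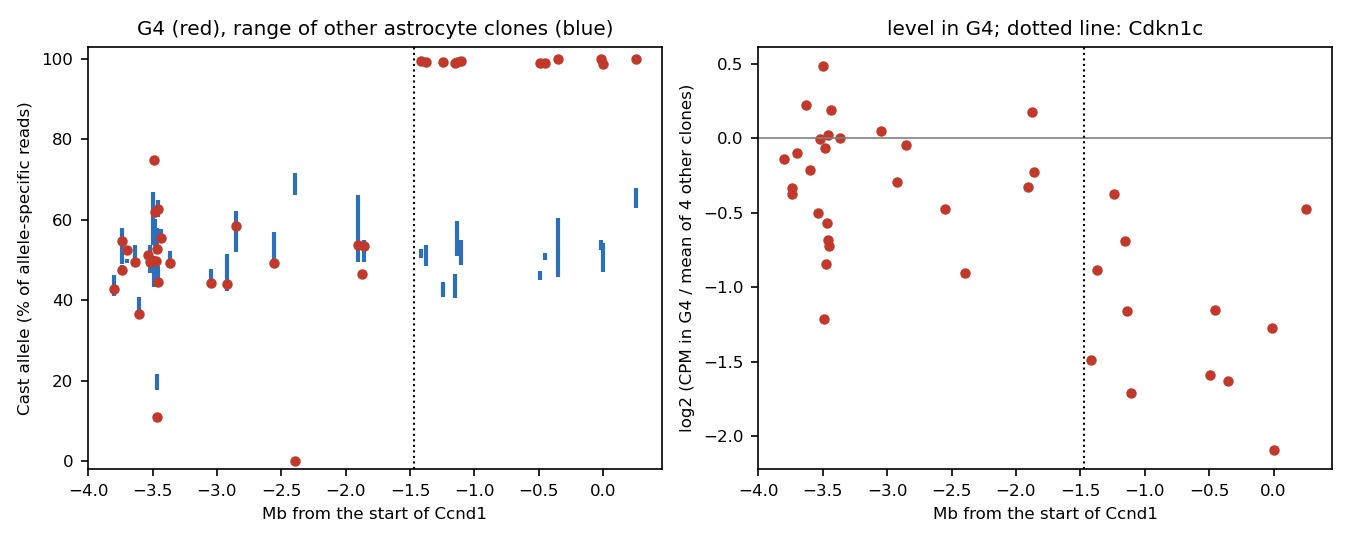
Left, % Cast of 38 genes of distal chromosome 7 in astrocyte clone G4 (red) and the range of the 4 other astrocyte clones (blue bars), against distance from the start of Ccnd1 in Mb; right, log2 ratio of the CPM in G4 to the mean of the other 4. Past the dotted line, which marks Cdkn1c, all 12 red points are at 98.8% or more on the left and below 0 on the right.

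Cdkn1c (chr7:143458339-143461059) is known to be expressed from the maternal allele. The study names the 129 allele as the maternal one and the Cast allele as the paternal one. Only the NPC clone mG2 had 20 or more allele-specific reads: 0 were Cast and 121 were of the 129 allele (Wilson interval 0 to 3.08%; a count of 0 allows up to 2.48%). The other 11 clones had 0 to 16 reads each. Below the minimum, mC3 (8 reads), mE6 (13) and Ch5 (7) had reads of the 129 allele only, C2 (8) and mG6 (8) had Cast reads only, and Ch3, Ch7 and Ch8 had both, with 2 of 8, 5 of 11 and 3 of 16 reads Cast. Clones 129, G4 and F5 had none. The state of Cdkn1c was therefore not measurable in most clones, and in the 5 clones whose reads were of 1 allele other than mG2 the allele differed between clones.

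The other genes listed for the imprinted domain gave little further. Kcnq1, Phlda2 and Slc22a18 had at most 0.0767 CPM in any poly(A) library and 0 to 3 allele-specific reads in a clone, and Ascl2 0 to 9 reads. Nap1l4, Cd81, Tssc4 and Osbpl5 were biallelic in all clones except that Nap1l4 and Osbpl5 were at 99.4% in G4. Osbpl5, a lipid transfer gene, fell in astrocytes from 72.4 to 30.0 CPM (log2 fold change -1.23, adjusted p = 0.00564), and Nap1l4, Cd81, Tssc4 and Ascl2 did not pass. Near Cdkn2a and Cdkn2b, Mtap fell from 132 to 61.2 CPM (-1.07, adjusted p = 0.0171), and Dmrta1 and Elavl2 did not pass.

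The allelic log2 ratio, log2 of Cast over 129 reads, was compared between the 5 astrocyte and 7 NPC clones for the 8 genes with enough reads. Cdkn1a passed and 7 did not, where 6.08% of 11960 genes passed, 3.19% with the higher ratio in astrocytes and 2.88% with the lower. Cdkn1a was at 57.0% Cast in clone 129, 51.5% in C2, 52.9% in G4, 49.8% in mC3 and 50.6% in mE6, and between 45.4 and 48.6% in NPC clones with a median of 47.9%. The groups did not overlap, and the difference was 0.29 (95% interval 0.13 to 0.44, adjusted p = 0.0403, limma). It is a shift of few percentage points within the biallelic range. The astrocyte libraries were all poly(A) and those of the Ch clones rRNA-depleted, so preparation and cell type are partly confounded in this test. The call was lost, with adjusted p of 0.0505 to 0.0785, when any 1 of C2, G4, mE6, F5, mG2, mG6, Ch3, Ch5, Ch7 or Ch8 was left out, and with the poly(A) NPC clones alone (adjusted p = 0.242).

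Ccnd2 was below 50% Cast in all 12 clones, at 43.2 to 47.5% in astrocytes and 44.7 to 46.8% in NPC clones. Its mean log2 ratio differed from 0 in both, at -0.26 in astrocytes (adjusted p = 0.000665) and -0.25 in NPC clones (adjusted p = 0.000216), as did that of 31.7% of all genes tested in astrocytes (12.7% above 0, 18.9% below) and 42.2% in NPC clones (16.7% above 0, 25.5% below). The difference between the cell types was -0.01 (95% interval -0.13 to 0.11). The mean ratio of Cdkn1a differed from 0 in NPC clones (-0.15, adjusted p = 0.0237) and did not pass in astrocytes (0.14, adjusted p = 0.0805). None of the other 6 genes passed in either cell type. For Cdkn2b and Ccnd1 the difference between cell types, 1.10 and 1.15, came from clones 129 and G4, and without them it was -0.31 and -0.10.

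Among the Ch clones, the allelic ratio of 0 of 8 genes passed the test across clones (limma F-test), where 6.28% of 10083 genes did, and 1, Cdkn2c, had an unadjusted p under 0.05 (0.0201). Cdkn2c was at 43.8% in Ch3, 54.1% in Ch5, 60.4% in Ch7 and 53.8% in Ch8. Between the 2 libraries of a clone, 0 of 32 comparisons of these genes passed Fisher's exact test with adjustment over all genes, where 0.322% of 42611 did, and 4 had an unadjusted p under 0.05. Cdkn2a in Ch8 came nearest, with 52.7 and 45.3% (exact p = 0.000178, adjusted p = 0.0508).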

How the data were processed

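RNA-seq of 16 libraries was analysed from the deposited read counts per gene: all reads, and reads assigned to the Cast or the 129 genome. The authors aligned reads with TopHat2 2.1.0 and Bowtie2 to an N-masked GRCm38 (mm10) genome, assigned alleles with SNPsplit and counted strand-specifically with featureCounts 1.5.1; the annotation version is not given in the sources used here. The deposited fraction of Cast reads per gene was not used and was recomputed from the counts. Reads without an informative SNP enter only the total, so allelic values rest on fewer reads, and intervals cover counting error only.

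CPM is reads over the library's total on genes; RPKM divides by exon-union lengths of an older annotation, matched by gene identifier. TMM factors were 0.947 to 1.06. Expression was tested with edgeR 4.0.16 (quasi-likelihood, TMM, filterByExpr), with the standard error taken from the fold change and its F statistic, and allelic log2 ratios, with 0.5 added to each count, with limma 3.58.1 (trend; at least 20 reads in 3 or more clones of each cell type), Ch libraries being summed per clone; all p-values were adjusted over all genes (Benjamini-Hochberg, threshold 0.05, two-sided). DESeq2 1.42.0 and other settings served as alternatives. Scripts were tested on simulated data. The 2 libraries of each Ch clone differed beyond sampling noise (chi-square per degree of freedom 10.3 to 59.1) and were kept as 2. Samples were grouped by their labels. The genes and lists were chosen with earlier results of these data known. Named genes were the members, up to 4 called genes of each list with the largest change, all genes of the 2 neighbour lists, markers, and the 3 most alike genes; Cdk4, Cdk6, the pocket protein genes, Cul1, Fbxw7 and genes of distal chromosome 7 were named besides, after their values were seen. Cdkn2d was not analysed here.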

Additional observations from a re-analysis of the deposited data

Results flagged for a closer look

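In 34 checks of groups of 4 to 7 clones for a value standing apart (Dixon's criterion, which chance meets in about 1 of 20 groups), 5 values did. Cdkn1b in astrocyte clone 129 was at 337 CPM, with the other astrocyte clones at 185 to 208. The % Cast of Cdkn2b in astrocyte clone 129 was 99.2, with the others at 44.1 to 51.0. The % Cast of Ccnd1 in astrocyte clone G4 was 98.8, with the others at 47.1 to 54.2. Among the 7 NPC clones, Ccnd1 in F5 was at 46.7% Cast, with the others at 52.2 to 54.0. Cdkn2c in Ch3 was at 41.6 CPM, with the other Ch clones at 57.3 to 59.5.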

How the results depend on the processing

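The direction and call of Cdkn1b held in all alternatives run, and those of Ccnd1 in all but the one with astrocyte clones C2 and G4 alone. Genes called between astrocyte and poly(A) NPC clones numbered 4644, 12036 with the 4 Ch clones as reference and 2269 to 4849 with a library left out; F5, mG2 and mG6 each moved the count by over 1.5 times (2667, 2269 and 3030). Among the Ch clones 2834 genes were called, 4361 without a filter on low counts, 1509 to 3244 with a library left out (1868 and 1509 without one of Ch3, 1832 and 1803 without one of Ch7) and 3391 with the library number as a replicate block. That number was not taken as a pairing, since correlations of same-numbered libraries' deviations were -0.18 to 0.28 and not all above 0.1, although 3 of 4 clones were closer to libraries of their own number. The block gained Cdkn2b (adjusted p = 0.0354) and changed no other call of these genes. Cdkn2b was also gained with DESeq2 (0.0266), without the filter (0.000817), without Ch5 replicate 1 (0.0455) and without Ch8 replicate 2 (0.0132), Cdkn1b without the filter (0.0183) and Cdkn2a without Ch5 replicate 2 (0.0325). The allelic count under the block was 628 instead of 633. Allelic differences between cell types numbered 727, 62 with the poly(A) NPC clones alone and 458 to 699 with a clone left out (458 without mE6).

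Of values that did not pass the main test, some turned sign. With the astrocytes of prefix A234 the log2 fold change was 0.0245 for Cdkn1a and 0.32 for Cdkn2c, and with prefix B129 0.26 for Cdkn2a and 0.0351 for Ccnd3. Against the Ch clones it was 0.90 for Cdkn1a and 0.27 for Cdkn2a. With 1 library left out it was -3.58 to 0.60 for Cdkn1c, -0.74 to 0.0046 for Cdkn2a, -0.33 to 0.0673 for Cdkn2c and -0.22 to 0.0112 for Ccnd3. The allelic difference was 0.18 for Cdkn2a with poly(A) NPC clones alone; with a clone left out it was -0.18 to 0.11 for Cdkn2a, -0.31 to 1.52 for Cdkn2b, -0.0730 to 0.20 for Cdkn2c (-0.0657 without G4, -0.0545 without Ch3), -0.10 to 1.51 for Ccnd1 and -0.04 to 0.0223 for Ccnd2 (0.0139 without mE6). The cause was not tested. The Ch libraries were the shallowest, where 3 reads are 0.0970 to 0.144 CPM.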
